A study of Homo sapiens with 15 samples.

Results

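Cells of the DLD1 colorectal cancer line that had lost USP7 and regained it for 9 days were set against the parental cells (WT), to describe which transcripts still differed after USP7 was returned. The comparison takes the 3 day 9 libraries and the 3 WT libraries, 6 of the 15 libraries of the series, and only their normalized count columns. The day 9 cells come from a USP7 knockout line (KO) transfected with a plasmid for GFP-tagged USP7 under a tetracycline-responsive promoter and a plasmid for the Tet-On 3G activator driven by the EF1alpha promoter, selected with G418 and given 1 µg/ml doxycycline. The WT cells had no transfection, no selection and no doxycycline. The other 9 libraries are KO cells without doxycycline and the same cells after 1 or 3 days of doxycycline, 3 each, and their values are given beside the comparison where they bear on it. Doxycycline on WT cells was not analysed here, so USP7 return, doxycycline and the history of the engineered line cannot be told apart. Replicates are biological per the labels, which do not say whether cultures were grown separately. The p-values therefore measure the spread between replicate libraries, taken over all 15 libraries of the series, and this spread may be technical.

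USP7 is a deubiquitinase: it removes ubiquitin from other proteins and thereby keeps many of them from the proteasome. Its best known client is MDM2, the ubiquitin ligase of p53. USP7 is also found in non-canonical Polycomb repressive complexes of the PRC1 type, which place ubiquitin on histone H2A at silenced genes.

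Library totals in the 6 libraries lay between 14741094 and 15000644 normalized counts, and 20984 to 21314 genes were above 0. The deposited column names carry 1 project code for the 9 WT, KO and day 1 libraries and another for the 6 day 3 and day 9 libraries. Day 9 and WT therefore lie in different codes, and what differs between codes cannot be told apart from what differs between the groups. Colorectal epithelial markers were present in both groups: EPCAM stood at 10448.0 ± 350.5 in day 9 cells and 9988.6 ± 337.8 in WT cells, and the 12 markers summed to 109347.0 to 115399.9 in day 9 cells and 105082.4 to 107225.6 in WT cells. Of fibroblast markers 3 of 9 were in the table and summed to 74.6 to 84.6 in day 9 cells and 66.8 to 82.6 in WT cells. The 3 of 11 leukocyte markers in the table summed to 18.8 to 30.9 in day 9 cells and 19 to 25.9 in WT cells, and the 3 of 7 endothelial markers to 31.7 to 61.7 in day 9 cells and 33.9 to 49.9 in WT cells. The 4 of 7 neural markers summed to 439.9 to 483.7 in day 9 cells and 577.0 to 613.4 in WT cells, nearly all of it MAP2, and GFAP was at 1.0 in both. Values below are normalized counts, means are ± SD with n = 3, and differences are day 9 minus WT in log2(value + 1), which understates the change of low genes. Adjusted p is limma's, corrected for 15134 genes by the Benjamini-Hochberg method, and a gene is called higher or lower where it is under 0.05.

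USP7 (ENSG00000187555) itself was higher in day 9 cells than in WT cells. The 3 day 9 libraries held 4944.7, 4402.4 and 5016.5, against 3420.6, 3372.6 and 3382.2 in WT libraries. The groups did not overlap, and the difference was 0.49 (95% interval 0.39 to 0.60, adjusted p = 2.73e-07), or 1.41-fold. KO cells without doxycycline still held 1389.3 ± 17.6, day 1 cells held 8238.9 ± 375.3 and day 3 cells 7827.9 ± 341.2. Between day 9 and day 3, which share a project code, USP7 was lower at day 9, with a difference of -0.71 (adjusted p = 5.91e-09). The counts do not separate the transgene from the endogenous transcript.

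Day 9 cells differed from WT cells in 3303 of 15134 genes (21.8%), of which 1577 (10.4%) were higher and 1726 (11.4%) lower. Most of these differences were small. The median size among called genes was 0.35 log2 units, 2180 were under 0.5, 673 lay from 0.5 to 1 and 450 (2.97%) reached at least 1, with 179 (1.18%) higher and 271 (1.79%) lower. Of 9859 genes the whole 95% interval lay within 0.5 log2 units of 0. The WT libraries also serve the other comparisons, whose own counts were 7519 called genes (49.7%, 24.8% higher and 24.8% lower) in KO cells, 6158 (40.7%, 19.9% higher and 20.8% lower) in day 1 cells and 4506 (29.8%, 14.4% higher and 15.4% lower) in day 3 cells. Day 9 against KO cells gave 3915 (25.9%, 12.4% higher and 13.4% lower). Day 9 against day 3 cells, the pair within 1 project code, gave 1123 called genes (7.42%, 3.03% higher and 4.39% lower), 46 of them (0.304%) by at least 1 log2 unit. Without adjustment, 5031 genes (33.2%) had p under 0.05 between day 9 and WT.

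**Figure D1:**
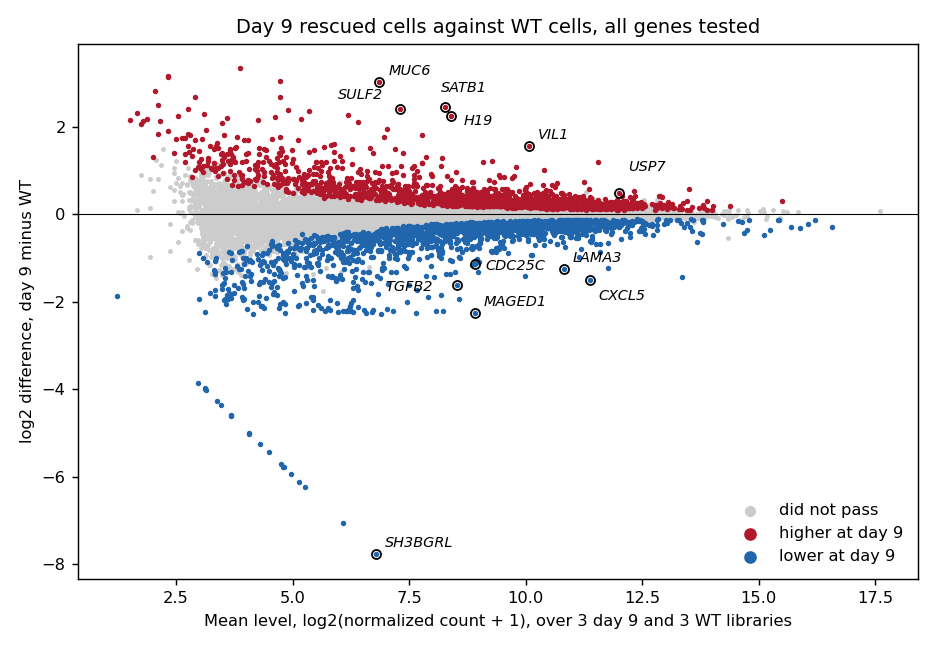
Log2 difference of day 9 minus WT cells (vertical axis) against the mean level over the 6 libraries in log2(normalized count + 1) (horizontal axis), 1 point for each of 15134 genes, with 1577 called higher in red and 1726 called lower in blue. Genes above 0 at day 9 do not go below -2.29, where a straight lower edge is seen, and the steep line of points further down is genes at 0 in all 3 day 9 libraries.

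The lower side of this distribution has a sharp edge, and the values behind it are unusual. Among genes above 0 in a day 9 library the lowest difference was -2.29. Genes at 0 in all day 9 libraries with at least 10 in WT began at -3.86. There were 48 genes above 0 with a difference of -2 or less, and 47 of them were at 0 in all 3 KO libraries. To describe such genes, those at 0 in all KO and day 1 libraries with a WT mean of at least 50 were taken. There were 44, and 7 of them were also at 0 in day 9 cells. The other 37 held 20.4% to 33.5% of their WT level in day 9 cells, with a median of 21.5%, and 31 of them lay between 20% and 25%. In day 3 cells, which share the code of day 9 cells, the same genes held 19.8% to 25.7% of WT, median 21.2%.

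Those 37 genes also varied less between libraries than counting allows. The variance over the mean among the 3 day 9 libraries had a median of 0.072, against 0.89 for the same genes in WT libraries, where counting alone gives 0.69. It was 0.05 in day 3 libraries. For all genes with a mean of 10 to 200 it was 0.96 in day 9 and 0.65 in WT libraries. In whole multiples of each library's smallest step, FBP1 (fructose-bisphosphatase) was at 36, 36 and 36 in day 9 libraries and at 187, 171 and 158 in WT libraries. MAGED1, a MAGE family gene on the X chromosome, was at 166, 165 and 168 in day 9 libraries and 774, 829 and 793 in WT libraries. In all, 8 of the 37 had the identical whole multiple in all 3 day 9 libraries. Values of this kind are not plain read counts. The sources used here do not state any adjustment of values between project codes before deposit, and its part in these values was not tested.

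**Figure D2:**
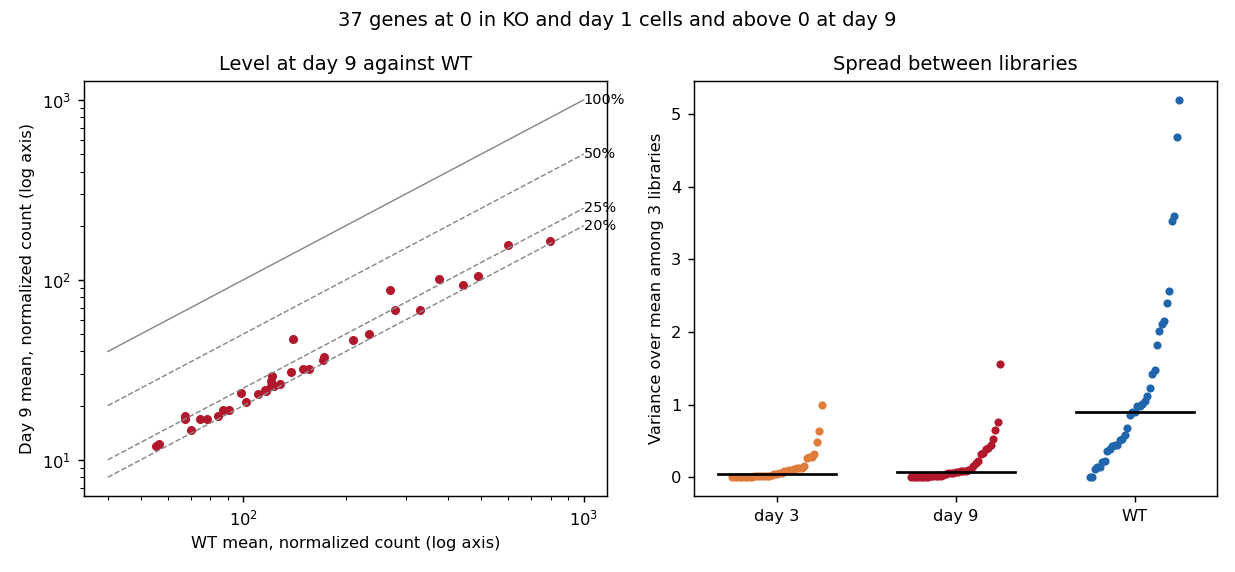
Left, day 9 mean against WT mean in normalized counts (both log axes) for the 37 genes at 0 in KO and day 1 cells, with lines at 20%, 25%, 50% and 100% of WT; most points lie between the 20% and 25% lines. Right, variance over mean among the 3 libraries of each group for the same genes, 1 point a gene, with the median as a bar: 0.05 at day 3, 0.072 at day 9 and 0.89 in WT.

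A second measurement bears on every difference below. For each gene the mean of the day 3 and day 9 groups was set against the mean of the WT, KO and day 1 groups, which compares the project codes. The size of that difference had a median of 0.063 log2 units over all 15134 genes. Among the 1334 genes that differed by at least 1 log2 unit between KO and WT cells it was 0.23, where the median size of the KO difference was 1.47 and that of the day 9 difference 0.76. Only 16 genes had all 6 libraries of days 3 and 9 outside the range of the other 9, namely 9 above and 7 below. The largest of these differences at day 9 was that of MYL9, a myosin light chain gene, at 59.3 in day 9 cells and 27.2 in WT cells. None of the genes named by rule below was among the 16. A level at day 9 that lies between KO and WT therefore cannot be told apart here from a mean set by the project code.

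Some genes present in WT cells were at 0 in day 9 cells. There were 8 genes at 0 in all 3 day 9 libraries with a mean of at least 50 in WT, and none the other way round. SH3BGRL, a small thioredoxin-fold protein gene on the X chromosome, was at 0 in every day 9 library and at 220.0 ± 19.8 in WT cells. GABRE, the epsilon subunit of the GABA-A receptor, was at 0 in day 9 cells and 132.9 ± 12.7 in WT cells. Their values separate the groups completely, and no fold is given because day 9 cells are listed at 0. The zinc finger genes ZNF432, ZNF738 and ZNF841 were at 0 in day 9 cells and had 75.1 ± 10.7, 68.8 ± 9.7 and 54.5 ± 10.1 in WT cells. RIBC2 (60.5 ± 8.1 in WT cells), the cell adhesion gene NECTIN3 (53.8 ± 3.7) and the angiopoietin gene ANGPT1 (51.8 ± 6.0) complete the 8. In 7 of these genes all 12 libraries of the KO line were at 0, and ZNF432 had 1 KO library at 1.0. More widely, 50 genes were at 0 in all KO libraries with at least 50 in WT, and 0 of them reached 50% of the WT mean in day 9 cells, where the highest single value was 167.2.

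The 300 bases around the start of such genes were read to see whether they share the CpG-rich promoters at which Polycomb complexes are known to act. A window from RefSeq (GRCh38.p14, 250 bases before the start to 50 after it) was found for 6 of the 8 genes. The 3 with the highest WT level are shown 5′ to 3′ on the gene's strand, with every CG in capitals: SH3BGRL at chrX:81201852-81202151 (plus strand, 12 CG), GABRE at chrX:151974627-151974926 (minus strand, 41 CG) and ZNF432 at chr19:52048789-52049088 (minus strand, 27 CG).
SH3BGRL: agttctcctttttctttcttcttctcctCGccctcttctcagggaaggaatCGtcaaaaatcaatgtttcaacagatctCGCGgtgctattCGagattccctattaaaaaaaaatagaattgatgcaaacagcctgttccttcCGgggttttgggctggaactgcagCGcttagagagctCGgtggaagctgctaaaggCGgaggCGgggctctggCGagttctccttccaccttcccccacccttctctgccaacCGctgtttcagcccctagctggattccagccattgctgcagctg
GABRE: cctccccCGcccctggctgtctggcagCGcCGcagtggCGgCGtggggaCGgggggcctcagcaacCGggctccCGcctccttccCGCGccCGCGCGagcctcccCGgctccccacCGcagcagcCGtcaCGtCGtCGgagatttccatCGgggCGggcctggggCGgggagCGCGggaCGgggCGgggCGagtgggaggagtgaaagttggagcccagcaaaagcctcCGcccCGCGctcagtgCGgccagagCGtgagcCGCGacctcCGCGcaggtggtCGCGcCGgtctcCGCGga
ZNF432: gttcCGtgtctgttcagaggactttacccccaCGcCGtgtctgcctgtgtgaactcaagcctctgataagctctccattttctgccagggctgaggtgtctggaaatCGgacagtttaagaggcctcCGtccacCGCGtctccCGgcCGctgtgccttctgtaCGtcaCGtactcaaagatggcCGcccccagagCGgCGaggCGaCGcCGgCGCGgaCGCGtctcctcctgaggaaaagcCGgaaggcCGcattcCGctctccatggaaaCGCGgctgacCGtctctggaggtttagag

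The windows of the genes at 0 were rich in CG, but so were those of other genes that WT cells express. All 6 windows held at least 10 CG, with a median of 29, while 56% of all 27305 windows held that many, with a median of 14. Of 9223 genes averaging 50 or more in WT, 90.9% of windows held at least 10, with a median of 27. SH3BGRL had the fewest of the 3 shown, at 51.3% G and C, and GABRE the most, at 76.7%. CG is its own reverse complement, so the count is the same on both strands. The build differs from the hg19 build the submitters name, so these windows place no reads.

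The largest increases in day 9 cells were in genes that were also higher in KO cells than in WT cells. Ranked by size among called genes that average 50 or more without overlap, the 12 largest were MUC6, SATB1, SULF2, LGALS4, H19, KLK11, RGR, FKBP10, SEMA4A, CTHRC1, CNTNAP2 and VIL1, from 3.02 down to 1.56 log2 units. Non-overlap by itself was common (6067 of 15134 genes, 40.1%). The chromatin organizer SATB1 (ENSG00000182568), which anchors chromatin loops, held 481.7, 506.7 and 566.2 in day 9 libraries, against 92.7, 91.9 and 95.5 in WT libraries. The lowest day 9 library was far above the highest WT one, with a difference of 2.46 (SE 0.08, adjusted p = 1.07e-14). KO cells held 850.0 ± 34.4, day 1 cells 892.4 ± 74.1 and day 3 cells 501.1 ± 49.5.

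SULF2, which trims sulfate from heparan sulfate chains outside the cell, held 260.8, 257.8 and 274.7 in day 9 libraries and 49.8, 45 and 50.7 in WT libraries. The difference was 2.42 (SE 0.07, adjusted p = 4.27e-15), and the KO, day 1 and day 3 means were 966.8, 637.0 and 354.8. These means fall step by step over the days of doxycycline, and the day 9 level still stood 5.37-fold above WT. H19, a maternally expressed imprinted RNA, held 538.5, 590.0 and 534.4 in day 9 libraries, against 107.6, 121.9 and 121.4 in WT libraries (2.24, adjusted p = 3.12e-08). In KO, day 1 and day 3 cells it averaged 2034.8, 1042.8 and 534.7. The brush border actin bundler VIL1 held 1649.2, 1640.0 and 1495.7 in day 9 libraries and 540.2, 519.5 and 558.1 in WT libraries (1.56, adjusted p = 1.44e-13). VIL1 was higher at day 9 than at day 3 by 0.46 (adjusted p = 2.75e-05), within the same code.

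The gastric mucin gene MUC6 averaged 204.4 ± 9.8 in day 9 cells and 25.2 ± 9.2 in WT cells, an 8.12-fold difference, and galectin-4 (LGALS4) 119.3 ± 20.6 in day 9 cells and 23.6 ± 1.5 in WT cells. The secreted protease KLK11 averaged 137.5 ± 19.2 in day 9 cells and 30.6 ± 0.5 in WT cells. FKBP10, a collagen-folding isomerase of the endoplasmic reticulum, had a mean of 340.6 ± 35.7 in day 9 cells and 96.0 ± 4.9 in WT cells, and it was higher at day 9 than at day 3 by 0.85 (adjusted p = 3.11e-06) and than in KO cells by 0.37 (adjusted p = 0.0039). MUC6 was also higher at day 9 than at day 3, by 0.99 (adjusted p = 0.00208), but lower than in KO cells, with a difference of -1.23 (adjusted p = 5.87e-05). The semaphorin SEMA4A was likewise at 192.5 ± 15.1 in day 9 cells and 55.8 ± 1.8 in WT cells, and above KO cells by 0.36 (adjusted p = 0.0166). RGR, an opsin family gene, averaged 206.1 ± 33.7 in day 9 cells and 51.8 ± 0.1 in WT cells, where all 3 libraries had the same whole multiple, 52. CTHRC1, a secreted protein with a collagen repeat, and CNTNAP2, a neurexin family adhesion gene, were 3.03-fold and 2.98-fold higher in day 9 cells.

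The 12 largest decreases under the same rule were KRT20, MAGED1, CGREF1, ZNF680, GPX3, CABP4, FBP1, SPIN3, DYNC2H1, ECHDC2, HLTF and LINC01515, at -2.20 to -2.29. All lie on the edge described above, and all were at 0 in every KO library. MAGED1 held 165.2, 163.6 and 167.2 in day 9 libraries and 771.4, 828.2 and 788.8 in WT libraries. KRT20, the keratin of differentiated colon epithelium, held 38.8, 37.7 and 41.8 in day 9 libraries and 229.2, 193.8 and 170.1 in WT libraries. HLTF, a DNA helicase and ubiquitin ligase of the replication fork, averaged 25.8 ± 0.1 in day 9 cells and 123.3 ± 15.1 in WT cells. Because their day 9 spread is below counting noise, the size of these decreases is given as deposited and not read further.

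A second set of decreases, chosen after those values were seen, holds the 12 largest among genes not at 0 in all libraries of any group. It consists of REG4, ZNF675, BAHCC1, FAAH2, UAP1L1, HERC5, TGFB2, INTS6L, RGS6, KLK7, LINC01152 and CXCL5. TGFB2, a ligand of the TGF-beta family, held 185.1, 179.5 and 179.1 in day 9 libraries, against 577.1, 542.4 and 556.1 in WT libraries (-1.62, SE 0.18, adjusted p = 3.85e-06). The neutrophil chemokine CXCL5 held 1416.3, 1406.0 and 1300.6 in day 9 libraries and 4206.0, 4145.8 and 3471.7 in WT libraries (-1.51, adjusted p = 1.91e-06). Neither gene's groups overlap. CXCL5 differs from TGFB2 in the other groups: KO, day 1 and day 3 cells held 2156.5, 1409.4 and 1798.8 of CXCL5, and 56.1, 25.1 and 156.2 of TGFB2.

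REG4, a secreted lectin of the gut, averaged 21.5 ± 2.5 in day 9 cells and 87.4 ± 10.0 in WT cells, and HERC5, the ligase that attaches ISG15, 36.4 ± 1.5 in day 9 cells and 119.6 ± 8.1 in WT cells. The chromatin gene BAHCC1 averaged 125.6 ± 15.7 in day 9 cells and 453.6 ± 37.9 in WT cells, with a wide 95% interval of -2.81 to -0.88. That interval rests on the spread in all groups, and the day 1 libraries of BAHCC1 lay far apart, at 15.1, 67.1 and 67.8. KLK7, a secreted protease, averaged 39.7 ± 11.4 in day 9 cells and 115.6 ± 10.0 in WT cells. This is the opposite direction to its neighbour in the family, KLK11. INTS6L averaged 64.6 ± 7.0 in day 9 cells and 197.0 ± 3.3 in WT cells, and RGS6, a regulator of G protein signalling, 52.0 ± 11.8 in day 9 cells and 152.2 ± 6.0 in WT cells. The call was lost for ZNF675 and FAAH2 when any 1 library was left out, at adjusted p = 0.0541 to 0.118 and 0.0637 to 0.106. UAP1L1 lost its call with a pseudocount of 0.5 (adjusted p = 0.0672). Only the 9 other genes of this set are therefore read as lower. The fit takes its spread from all groups, including KO libraries near 0 (4.0, 4.0 and 0.0 for ZNF675, and 4.0, 0.0 and 7.0 for FAAH2). With the day 9 and WT libraries fitted alone, ZNF675, FAAH2 and UAP1L1 kept their calls.

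**Figure D3:**
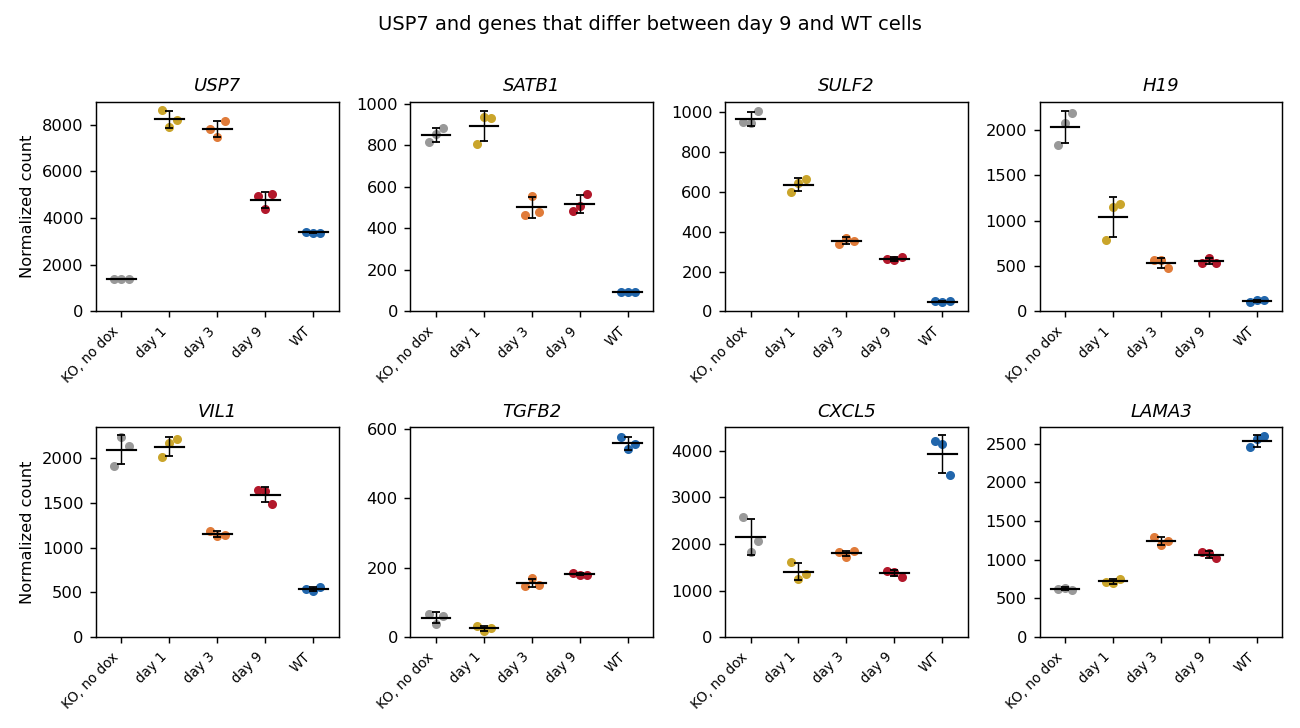
Normalized counts per library (vertical axes, from 0) of USP7 and 7 genes that differ between day 9 and WT cells, in KO cells without doxycycline, after 1, 3 and 9 days of doxycycline, and in WT cells; points are libraries, bars are the mean ± SD of 3. In day 9 cells USP7, SATB1, SULF2, H19 and VIL1 lie above every WT library, and TGFB2, CXCL5 and LAMA3 lie below every WT library.

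Another group of genes stood close to WT in KO cells (a log2 difference under 0.2 in size) and away from it in day 9 cells. The largest such increases were RUFY3, PALM3, ITGA7, ANKRD1, CCDC88B and CST7, and the largest decreases CXCL3, TNFRSF1B, NRP2, GPR161, PDGFRL and FOXD2-AS1. RUFY3, an adaptor of lysosome transport, held 1070.0, 972.7 and 1193.2 in day 9 libraries, against 601.0, 612.4 and 592.9 in WT libraries (0.84, adjusted p = 4.64e-07), and averaged 624.3 ± 29.9 in KO cells. Day 1 cells, which share the code of WT cells, held 1568.8 ± 170.3, a difference of 1.37 from WT (adjusted p = 7.14e-11). The RUFY3 difference was thus also present within 1 code. CST7 (cystatin F) averaged 449.0 ± 11.9 in day 9 cells and 305.7 ± 32.6 in WT cells, with a day 1 difference of 0.36 (adjusted p = 0.00275). ANKRD1, a widely used YAP target, averaged 78.2 ± 10.9 in day 9 cells and 51.2 ± 2.1 in WT cells, with a day 1 difference of 0.37 (adjusted p = 0.0401).

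Among the decreases of this kind were receptors. TNFRSF1B, TNF receptor type II, averaged 142.8 ± 6.4 in day 9 cells and 233.9 ± 16.2 in WT cells (-0.71, adjusted p = 0.000159), with 237.3 ± 20.9 in KO cells. The co-receptor neuropilin-2 (NRP2) averaged 125.9 ± 13 in day 9 cells and 203.3 ± 12.3 in WT cells (-0.69), and GPR161, a ciliary receptor that restrains Hedgehog signalling, 146.5 ± 5.3 in day 9 cells and 227.0 ± 10.2 in WT cells (-0.63). These 3 also differed from WT within the code at day 1, by -0.60, -0.67 and -0.90 (adjusted p = 0.000369, 2.86e-05 and 8.98e-07). The chemokine CXCL3 averaged 33.1 ± 2.0 in day 9 cells and 70.8 ± 20.1 in WT cells (-1.04), and differed by -1.13 at day 1 (adjusted p = 8.95e-05). These cells all had doxycycline, which WT and KO cells did not. The calls of ITGA7, CCDC88B and FOXD2-AS1 were lost with 1 library left out: ITGA7 at adjusted p up to 0.112 (WT replicate 2, with 0.0749, 0.0529 and 0.0728 for WT replicate 3 and day 9 replicates 1 and 3), CCDC88B up to 0.142 (WT replicate 2, with 0.122, 0.123 and 0.138 for WT replicate 1 and day 9 replicates 2 and 3) and FOXD2-AS1 up to 0.0678 (WT replicate 3, with 0.0633 and 0.0659 for day 9 replicates 1 and 2).

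Other genes that differed strongly in KO cells were near WT at day 9. They were chosen by a 95% interval within 0.5 log2 units of 0, so their nearness is a description. AQP3, a water and glycerol channel, averaged 233.9 ± 15.6 in day 9 cells and 209.0 ± 6.9 in WT cells (0.16, interval -0.03 to 0.35), with 1035.8 ± 62.7 in KO cells. The receptor tyrosine kinase KIT averaged 1662.7 ± 45 in day 9 cells and 2071.3 ± 35.9 in WT cells (-0.32, interval -0.45 to -0.19), with 549.6 ± 9.3 in KO cells. Both still moved between day 3 and day 9, which share a code: AQP3 had a difference of -1.10 (adjusted p = 7.58e-08) and KIT of 1.01 (adjusted p = 1.82e-09). SCIN, an actin-severing protein, was at 332.3 ± 15.3 in day 9 cells and 273.8 ± 9.7 in WT cells, with 914.1 ± 25.6 in KO cells. The hairless gene HR was at 87.8 ± 9.5 in day 9 cells and 83.7 ± 12.6 in WT cells, with 246.9 ± 31.9 in KO cells. GBP3, an interferon-inducible GTPase, was at 445.6 ± 23.6 in day 9 cells and 563.5 ± 5.8 in WT cells, and CRTAM, an adhesion receptor, at 189.9 ± 12.5 in day 9 cells and 216.7 ± 16.7 in WT cells. In KO cells GBP3 was at 166.3 ± 8.8 and CRTAM at 69.0 ± 3.2. The others named by this rule were MTCL1, ELF3 and PIK3R3, higher in KO cells, and CADPS, HEG1 and AC069120.1, lower in KO cells.

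Subunits of the Polycomb complexes, to which USP7 belongs, went both ways. Of 41 PRC1 and non-canonical PRC1 genes, 5 were higher and 6 lower in day 9 cells, a share near the 10.4% higher and 11.4% lower of all genes, with a median difference of 0.04 beside 0.00 over all genes. AUTS2, a subunit of PRC1 complexes that have been tied to gene activation, held 67.7, 54.5 and 68.7 in day 9 libraries, against 30.9, 35.0 and 27.9 in WT libraries (1.00, adjusted p = 1.26e-05). Its difference was the largest of the list, and KO cells held 234.3 ± 13.9. SCML1 (0.46), the RING1 partner RYBP (0.26) and the deacetylase HDAC2 (0.26) were higher, and the PRC1.1 corepressor BCOR (-0.26) and DCAF7 (-0.20) were lower. The calls of 5 others were lost with 1 library left out: HDAC1 (0.15, adjusted p = 0.0624 and 0.0588 without day 9 replicate 1 and without WT replicate 2, and 0.109 with equal medians), SCML2 (-0.49, 0.0535 without WT replicate 2), CBX7 (-0.38, 0.0746 without day 9 replicate 3), BMI1 (-0.31, up to 0.106 without WT replicates 1 or 2 or day 9 replicate 3) and PHC2 (-0.17, up to 0.174 without any library but day 9 replicate 2). The 6 lower members became 3 without WT replicate 2 or without day 9 replicate 3.

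Of 13 PRC2 genes, 1 was higher and 2 lower (10.4% and 11.4% of all genes), with a median of 0.00. PHF19, which reads a methylated histone for PRC2, held 1482.0, 1524.0 and 1498.7 in day 9 libraries and 1955.5, 1979.0 and 1914.9 in WT libraries (-0.38, adjusted p = 1.05e-05). LCOR, whose locus also encodes a PRC2 partner, was higher by 0.27 (adjusted p = 0.000756). RBBP7, a histone chaperone shared by several complexes, had a difference of -0.14, a call lost without WT replicate 1, day 9 replicate 2 or day 9 replicate 3 (adjusted p = 0.115, 0.0928 and 0.0676), which leaves 1 lower. Among 37 partners and substrates of USP7, 2 were higher and 11 lower (10.4% and 11.4% of all genes), with a median of -0.03. The lower ones include HLTF, which lies on the edge described above. NEK2, BUB3, PLK1 and CCNA2, also among the 11, act in mitosis, and whether mitotic members stand out in this list was not tested. NEK2 differed by -0.46 and PLK1 by -0.32, while UVSSA, a transcription-coupled repair factor that USP7 stabilizes, was higher by 0.31 (adjusted p = 0.000281).

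Targets of p53 went both ways. Of 25, 6 were higher and 4 lower (10.4% and 11.4% of all genes). Their median of 0.01 turned to -0.01 when libraries were scaled to equal medians. The counts rest on single libraries: 2 or 3 were higher without WT replicate 2 or 3 or day 9 replicate 2 or 3 (2 in the case of day 9 replicate 2) and 3 with equal medians, and 2 were lower without WT replicate 1 or day 9 replicate 3. TP53INP1 had the lowest adjusted p of the list (-2.06, adjusted p = 0.000134). It was at 0 in all KO and day 1 libraries, at 10.0, 9.9 and 10.0 in day 9 libraries and at 44.9 ± 7.0 in WT cells. These day 9 values are as even as those of the edge genes, so the size is not read further. The redox gene TP53I3 differed by -0.41 (adjusted p = 0.000834) and the stress sensor SESN2 by 0.44 (adjusted p = 0.00865). MDM2 and CDKN1A, named outside the rule as the best known members of the pathway, did not differ beyond their spread. MDM2 averaged 1113.3 ± 19.3 in day 9 cells and 1101.5 ± 79.7 in WT cells (0.02, interval -0.09 to 0.13), and CDKN1A, the cell cycle inhibitor p21, 345.9 ± 27.2 in day 9 cells and 343.3 ± 24.6 in WT cells (0.01, interval -0.16 to 0.18).

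Mitotic genes had the largest share called of the 37 groups: of 54 spindle and kinetochore genes, 47 were lower in day 9 cells and none higher (11.4% and 10.4% of all genes), with a median of -0.32. CDC25C, the phosphatase that switches on CDK1, held 299.6, 307.4 and 287.6 in day 9 libraries, against 671.8, 647.3 and 655.5 in WT libraries (-1.14, adjusted p = 3.65e-09). The spindle pole gene ASPM held 1654.2, 1718.3 and 1729.5 in day 9 libraries and 2828.6, 3121.8 and 2939.5 in WT libraries (-0.80, adjusted p = 8.19e-09). The topoisomerase gene TOP2A held 10774.3, 9863.8 and 10121.5 in day 9 libraries and 16442.1, 15931.7 and 15329.3 in WT libraries (-0.63, adjusted p = 1.55e-08). In all these genes every day 9 library was below every WT library, and 49 of the 54 members did not overlap between the groups (40.1% of all genes did not). The kinesin KIF20A differed by -0.52. The summed level of the 54 genes ran from 118009.6 to 126114.1 in day 9 libraries and from 152369.8 to 156661.4 in WT libraries. Bulk RNA cannot tell fewer cells in mitosis from less of these transcripts per cell.

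The same mitotic genes were low in KO cells (52 lower, median -0.45), in day 1 cells (52, -0.44) and in day 3 cells (43, -0.27), against the same WT libraries. Over all genes 24.8%, 20.8% and 15.4% were lower in these groups. KO and day 1 share the code of WT. At day 9, 20 members were higher and 0 lower than in KO cells (12.4% and 13.4% of all genes). Within the other code 4 members were lower and 0 higher at day 9 than at day 3 (4.39% and 3.03% of all genes), with a median of -0.06. Genes of DNA replication and E2F targets were called at a share near that of all genes (10.4% higher and 11.4% lower). Of 50, 5 were higher and 6 lower, with a median of 0.04. The base excision enzyme UNG differed by -0.50 and thymidylate synthase TYMS by -0.20, while E2F1 differed by 0.30 (adjusted p = 0.000317). WDR76 lies on the edge, at 105.7 ± 4.5 in day 9 cells and 489.5 ± 27.5 in WT cells. The higher count fell to 1 or 2 without any single library but day 9 replicate 2 and to 1 with equal medians, while it was 10 with the 6 libraries fitted alone, and the lower count to 3 without day 9 replicate 2.

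**Figure D4:**
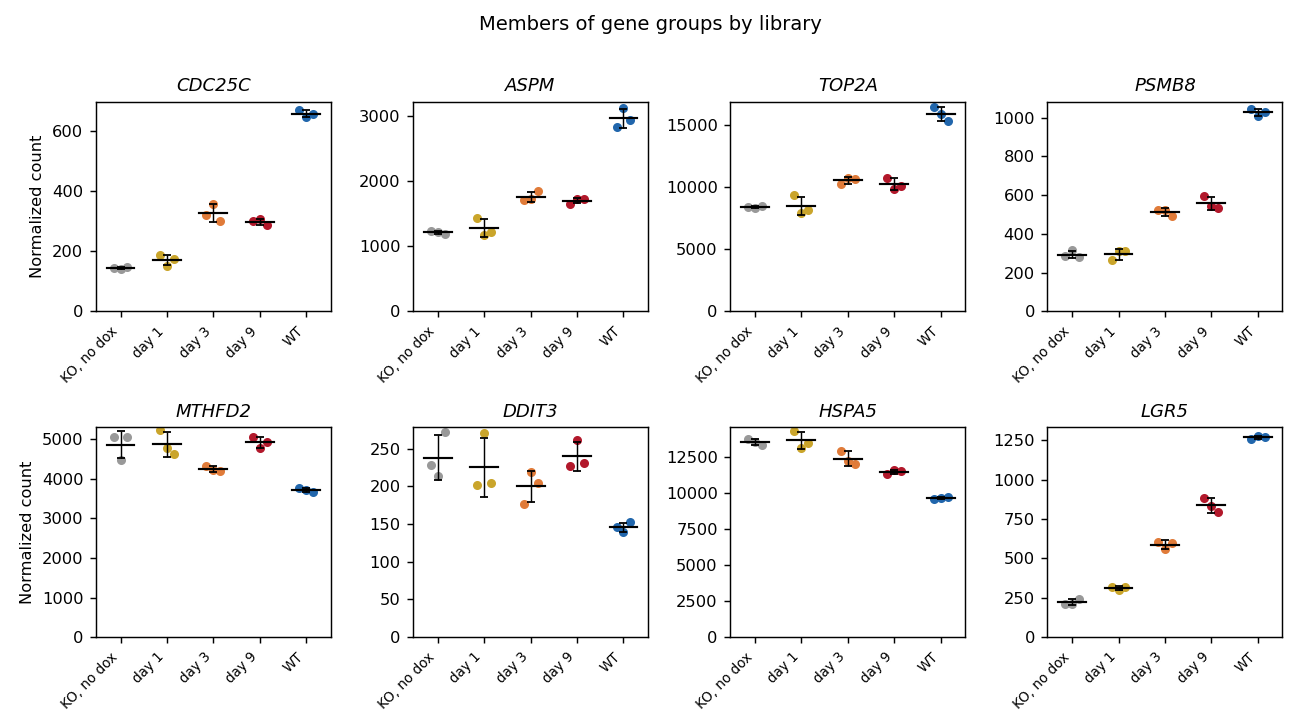
Normalized counts per library (vertical axes, from 0) for members of the mitotic (CDC25C, ASPM, TOP2A), antigen presentation (PSMB8), ATF4 (MTHFD2, DDIT3), endoplasmic reticulum (HSPA5) and stem cell (LGR5) groups, in KO cells without doxycycline, after 1, 3 and 9 days of it, and in WT cells; points are libraries, bars are the mean ± SD of 3. Every day 9 library is below every WT library for CDC25C, ASPM, TOP2A, PSMB8 and LGR5, and above every WT library for MTHFD2, DDIT3 and HSPA5.

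Among MYC and ribosome biogenesis genes more were higher than lower. Of 46, 18 were higher and 1 lower in day 9 cells (10.4% and 11.4% of all genes), with a median of 0.13. KO cells had 42 higher and 1 lower (median 0.35), where 24.8% of all genes were called in each direction. MYC held 2508.2, 2633.5 and 2532.6 in day 9 libraries, against 1874.7, 1978.0 and 1970.6 in WT libraries (0.40, adjusted p = 4.66e-05). KO, day 1 and day 3 cells held 4027.6, 2605.3 and 2043.0, and MYC was higher at day 9 than at day 3 (0.32, adjusted p = 0.00154). Spermidine synthase SRM (0.32), the nucleolar GTPase GNL3 (0.26) and the helicase DDX21 (0.25) were higher in day 9 cells. The 18 became 7 with equal medians, 9 without WT replicate 2, 10 without WT replicate 3 and 11 without day 9 replicate 1, and the 1 lower became 0 without WT replicate 1 or day 9 replicate 2. Of 78 cytosolic ribosomal protein genes, 6 were higher and 2 lower (median 0.01, and -0.01 with equal medians), where 10.4% and 11.4% of all genes were. KO cells had 51 higher and 2 lower, where 24.8% of all genes were called in each direction. RPL10 differed by -0.28, and RPL38 by 0.24, RPL26 by 0.21 and RPL12 by 0.18. Many of these genes have near-identical pseudogenes, among which the counting may have divided reads. The 2 lower became 1 without WT replicate 1 or day 9 replicate 3, 4 without WT replicate 2 and 5 with the 6 libraries fitted alone.

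Stress-response genes differed by group, with ATF4 and endoplasmic reticulum genes more often higher than lower. Heat shock and antioxidant genes were called in both directions, as were all genes. Of 41 ATF4 and integrated stress response genes, 20 were higher and 1 lower in day 9 cells (10.4% and 11.4% of all genes), with a median of 0.20. MTHFD2, a mitochondrial folate enzyme, held 5056.2, 4780.2 and 4916.0 in day 9 libraries, against 3760.5, 3713.2 and 3658.7 in WT libraries (0.41, adjusted p = 4.84e-06). DDIT3, which encodes the stress factor CHOP, held 226.9, 261.8 and 230.9 in day 9 libraries and 145.5, 139.9 and 152.2 in WT libraries (0.71, adjusted p = 0.000117). Both separate the groups without overlap, and KO cells held 4857.5 ± 339.1 of MTHFD2 and 238.0 ± 30.1 of DDIT3. The methionyl-tRNA synthetase MARS1 (0.32) and the cationic amino acid carrier SLC7A1 (0.27) were also higher. The 1 lower gene, VLDLR (-0.33), was not called without any single library but WT replicate 1. In KO cells 23 of the 41 were higher and 4 lower (median 0.22), where 24.8% of all genes were called in each direction. Day 1 cells had 17 higher and 6 lower (median 0.12, with 19.9% and 20.8% of all genes). Against KO cells, 7 were higher and 3 lower at day 9 (median 0.01, with 12.4% and 13.4% of all genes). In day 3 cells 8 were higher and 7 lower (median 0.04, with 14.4% and 15.4% of all genes). Between days 9 and 3, within 1 code, 18 were higher and 1 lower at day 9 (median 0.20, with 3.03% of all genes higher). Most of this group thus had no call between day 3 and WT cells.

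Of 31 endoplasmic reticulum chaperone and unfolded protein response genes, 11 were higher and 0 lower (10.4% and 11.4% of all genes), with a median of 0.09. The lumenal chaperone HSPA5 (BiP) held 11336.6, 11590.1 and 11546.6 in day 9 libraries, against 9596.0, 9692.1 and 9750.7 in WT libraries (0.25, adjusted p = 6.67e-05). Calreticulin (CALR, 0.30), the transcription factor XBP1 (0.28) and the disulfide isomerase PDIA4 (0.20) were higher as well. In KO, day 1 and day 3 cells 23, 22 and 18 members were higher, where 24.8%, 19.9% and 14.4% of all genes were. Cytosolic heat shock genes were mixed, with 4 higher and 4 lower of 25 (median 0.02, and -0.01 with equal medians), beside the same shares of all genes. HSPH1, a large HSP70-type chaperone, held 2125.0, 1995.0 and 2148.5 in day 9 libraries and 4925.6, 4839.1 and 4803.7 in WT libraries (-1.22, adjusted p = 1.95e-08). HSPA8 differed by -0.35, HSPA1B by -0.32 and DNAJB1 by -0.27. The 4 higher became 2 without WT replicate 1, WT replicate 2 or day 9 replicate 1, and 1 with equal medians, where 7 were lower. With the 6 libraries fitted alone 7 were higher and 7 lower.

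Of 27 NRF2 antioxidant genes, 3 were higher and 5 lower (median -0.03), where 10.4% and 11.4% of all genes were. The quinone reductase NQO1 differed by -0.48 (5666.0 ± 153.6 in day 9 cells and 7884.6 ± 183.0 in WT cells, adjusted p = 4.84e-08), the transporter ABCC3 by -0.51 and the aldo-keto reductase AKR1C3 by -1.42, and glutathione reductase GSR by 0.16 (adjusted p = 0.0519 with equal medians). The 3 higher became 5 with the 6 libraries fitted alone. Of 35 cholesterol and fatty acid synthesis genes, 14 were higher and 3 lower (10.4% and 11.4% of all genes), with a median of 0.13. The desaturase FADS2 was among the lower ones, with a difference of -0.66. The 14 became 8 without WT replicate 1 or 3 and 9 without day 9 replicate 2.

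Of 38 glycolysis and hypoxia genes, 4 were higher and 14 lower (10.4% and 11.4% of all genes), with a median of -0.14. Lactate dehydrogenase LDHA held 12259.3, 11297.6 and 11655.0 in day 9 libraries and 15724.5, 15788.9 and 15711.3 in WT libraries (-0.42, adjusted p = 4.15e-07). The mitophagy receptor BNIP3L differed by -0.39 and the enolase ENO2 by -1.0. Carbonic anhydrase CA12 went the other way, at 239.6 ± 21 in day 9 cells and 89.7 ± 2.5 in WT cells (1.40, adjusted p = 4.37e-10). The 14 became 9 without day 9 replicate 3, and the 4 became 2 without WT replicate 1 or 3. Of 13 mtDNA-encoded genes, 5 were lower and 1 higher (median -0.02), where 11.4% and 10.4% of all genes were. MT-ND1 differed by -0.47, MT-CO3 by -0.31, MT-CO1 by -0.29 and MT-CO2 by -0.21. The summed level of the 13 genes spread more widely in day 9 cells, from 643098.2 to 764863.8, than in WT cells, from 716921.5 to 739898.6.

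Among inflammatory and antigen-presentation genes more were lower than higher in day 9 cells. Of 19 tested NF-kB and chemokine genes, 10 were lower and 3 higher (11.4% and 10.4% of all genes), with a median of -0.39. Beside CXCL5, the NF-kB subunit NFKB1 averaged 959.2 ± 69.1 in day 9 cells and 1274.9 ± 20.7 in WT cells (-0.41, adjusted p = 1.16e-05). The feedback inhibitor TNFAIP3 averaged 123.2 ± 14.1 in day 9 cells and 199.0 ± 14.6 in WT cells (-0.69), and BIRC3, an NF-kB-induced ubiquitin ligase, 204.4 ± 3.1 in day 9 cells and 332.3 ± 15.1 in WT cells (-0.70). These members were named by adjusted p, and the 3 higher ones are not among them. The summed level of the group was 8122.3 to 8360.6 in day 9 libraries and 11151.3 to 12030.7 in WT libraries. Most of that difference was due to CXCL5, which averaged 1374.3 ± 64.0 in day 9 cells and 3941.2 ± 407.7 in WT cells. The sum therefore does not describe the group as a whole. Day 1 cells, within the code of WT cells, had 12 lower and 4 higher (20.8% and 19.9% of all genes), with a median of -0.38. At day 9, 9 members were lower and 1 higher than in KO cells (13.4% and 12.4% of all genes).

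Of 22 MHC class I presentation genes, 9 were lower and 1 higher (11.4% and 10.4% of all genes), with a median of -0.18. The immunoproteasome subunit PSMB8 held 594.2, 544.4 and 533.4 in day 9 libraries, against 1043.5, 1010.0 and 1026.6 in WT libraries (-0.88, adjusted p = 2.02e-08). The peptide transporter TAP1 differed by -0.33 and the proteasome activator PSME1 by -0.26. The 1 higher gene was CALR, which also serves as a general chaperone. Interferon-stimulated genes were less uniform, with 10 lower and 5 higher of 45 (median -0.05). The 5 higher ones are near the share of all genes (10.4%). KO cells had 27 lower and 3 higher (median -0.33), where 24.8% of all genes were called in each direction. OAS3 differed by -0.23, DTX3L by -0.25 and PARP14 by -0.20. SAMD9L, an antiviral translation inhibitor, averaged 67.6 ± 4.6 in day 9 cells and 12.3 ± 0.6 in WT cells (2.37, adjusted p = 8.5e-10), and was also higher at day 1 by 2.39 (adjusted p = 7.53e-11). The 10 lower became 6 without day 9 replicate 2, and the 5 higher became 2 without WT replicate 1 or 2, 3 without day 9 replicate 2 or 3 and 2 with equal medians.

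Genes of epithelial identity went both ways, and their counts stand beside 10.4% higher and 11.4% lower of all genes in day 9 cells. Of 34 tested intestinal differentiation genes, 13 were higher and 6 lower in day 9 cells, with a median of 0.24. Beside SATB1, VIL1 and LGALS4, the nuclear receptor HNF4G averaged 151.7 ± 5.7 in day 9 cells and 57.1 ± 11.1 in WT cells (1.41, adjusted p = 1.2e-07). In KO, day 1 and day 3 cells the group had 19, 18 and 17 higher and 10, 8 and 6 lower. Over all genes 24.8%, 19.9% and 14.4% were higher there, and 24.8%, 20.8% and 15.4% lower. Of 12 mucin and galectin genes, 6 were higher and 1 lower (median 0.22): the lower was MUC13, a membrane mucin, at 553.6 ± 40.7 in day 9 cells and 887.5 ± 50.2 in WT cells (-0.68). MUC5B was at 8.0 ± 1.0 in day 9 cells and listed at 0 in all WT libraries. Of 31 junction genes, 9 were higher and 4 lower (median 0.10), with occludin OCLN at 0.46, cingulin CGN at 0.43 and TJP1 at 0.26, and the liver-intestine cadherin CDH17 at -0.37. The 4 lower became 2 without WT replicate 1, WT replicate 2 or day 9 replicate 2. Of 15 keratins, 4 were higher and 3 lower (median 0.05), with KRT80 at 0.38. The 4 became 2 without any single WT library or day 9 replicate 2, and 1 was lower without genes at 0 in all libraries of a group, which leave out KRT20 and KRT6A.

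Wnt targets and intestinal stem cell genes split, with 7 higher and 6 lower of 31 (median -0.05), where 10.4% and 11.4% of all genes were. LGR5, the receptor that marks crypt stem cells, held 885.8, 832.9 and 792.1 in day 9 libraries, against 1257.8, 1278.7 and 1268.3 in WT libraries (-0.60, adjusted p = 1.27e-06). KO, day 1 and day 3 cells held 223.0, 312.6 and 588.0, and LGR5 was higher at day 9 than at day 3 by 0.51 (adjusted p = 4.23e-05), within 1 code. Between days 9 and 3, 10 members of this group were higher and 1 lower at day 9 (3.03% and 4.39% of all genes). The chloride cotransporter SLC12A2 differed from WT by -0.37, and BAMBI, a decoy receptor of the TGF-beta family, by 0.41.

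Matrix and adhesion genes went both ways, as did all genes (10.4% higher and 11.4% lower in day 9 cells). Of 29 matrix, laminin and integrin genes, 7 were lower and 4 higher (median -0.02). LAMA3, a chain of laminin-332, held 1100.8, 1081.8 and 1019.0 in day 9 libraries, against 2452.8, 2559.4 and 2595.3 in WT libraries (-1.25, adjusted p = 8.02e-13). The hemidesmosome collagen COL17A1 averaged 182.6 ± 12 in day 9 cells and 476.5 ± 66.1 in WT cells (-1.37), and the integrin subunit ITGB6 253.5 ± 11.9 in day 9 cells and 501.4 ± 27.9 in WT cells (-0.98). SULF2, described above, belongs to the higher ones, whose count became 2 without WT replicate 1 or day 9 replicate 2. Of 16 mesenchymal genes, 5 were lower and 3 higher (median -0.14). The matrix glycoprotein TNC averaged 311.5 ± 8.9 in day 9 cells and 656.9 ± 16.8 in WT cells (-1.07), with 33.2, 69.5 and 190.9 in KO, day 1 and day 3 cells. TGFBI differed by -0.24, SNAI1 by 0.70, and COL6A1 averaged 29.8 ± 9.0 in day 9 cells and 11.3 ± 3.2 in WT cells (1.32).

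Signalling genes went both ways, as did all genes (10.4% higher and 11.4% lower in day 9 cells). Of 29 TGF-beta and BMP genes, 7 were higher and 6 lower (median -0.04). The ligand TGFB3 averaged 285.6 ± 25.7 in day 9 cells and 180.8 ± 18.2 in WT cells (0.66) and the activin subunit INHBB 518.8 ± 59.2 in day 9 cells and 337.9 ± 18.9 in WT cells (0.61), opposite to TGFB2. LTBP3, which holds latent TGF-beta, was higher by 0.85. Of 27 EGF receptor and ERK feedback genes, 8 were higher and 5 lower (median -0.04), with EGR1 at 0.47 and the ligand TGFA at 0.31, and the ERK phosphatases DUSP5 at -0.77 and DUSP6 at -0.29. Of 31 YAP and TEAD genes, 8 were higher and 7 lower (median -0.02). TEAD1 averaged 5478.2 ± 184.1 in day 9 cells and 4186.3 ± 25.8 in WT cells (0.39). TEAD2 averaged 101.4 ± 3.0 in day 9 cells and 375.5 ± 15 in WT cells (-1.88, 27.0% of WT). It is among the 37 genes described above that were at 0 in KO and day 1 cells. The ectonucleotidase NT5E differed by -0.60.

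Developmental genes are classic Polycomb targets. Of 43 tested developmental transcription factor genes, 6 were higher and 4 lower in day 9 cells (median 0.07), near the share of all genes called (21.8%). KO cells had 31 higher and 5 lower (median 0.38), where 24.8% of all genes were called in each direction. PAX9 differed by 0.46, NR2F2 by 0.25 and MSX2 by -0.58, and DLX3 averaged 3.6 ± 1.1 in day 9 cells and 18.3 ± 4.1 in WT cells. The 6 became 3 without day 9 replicate 2, and the 4 became 2 without WT replicate 3. Of 27 HOX genes, 6 were higher and 5 lower (median 0.09), where 10.4% and 11.4% of all genes were. Neighbours in the HOXB cluster moved apart: HOXB4 was at 1140.4 ± 17.9 in day 9 cells and 839.0 ± 55.3 in WT cells (0.44), while HOXB5 was at 337.0 ± 56.1 in day 9 cells and 582.8 ± 17.6 in WT cells (-0.80) and HOXB9 differed by -0.29. HOXA9 differed by 0.32. The 5 lower HOX genes became 3 without any single library but WT replicate 3, and 3 with no filter. Of 19 imprinted genes, 3 were higher and 6 lower (median 0.09), against the same shares of all genes. Beside H19, MEST differed by 0.49 and PLAGL1 by -0.45. IGF2, the growth factor gene next to H19 and expressed from the other parental copy, was named after its values were seen. It held 10, 16.9 and 14.9 in day 9 libraries and 42.9, 42 and 32.8 in WT libraries (-1.45, adjusted p = 0.0112), with 1.3 ± 0.6 in KO cells. H19 was thus higher and IGF2 lower in day 9 cells, without overlap in either.

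In the remaining groups, too, counts are to be read against the 10.4% higher and 11.4% lower of all genes. Of 47 nuclear oxidative phosphorylation genes, 7 were higher and 1 lower (median 0.03). The 7 became 3 without WT replicate 2 or 3, 4 without day 9 replicate 2 or 3, and 1 with equal medians, and the 1 became 0 without WT replicate 2. Of 49 mitochondrial ribosomal protein genes, 9 were higher and 0 lower (median 0.06), a count that became 2 or 3 without any single library but day 9 replicate 1, and 3 with equal medians. MRPS9 (0.31) was called in every setting run. Of 19 BCL2 family genes, 2 were higher and 1 lower (median 0.02, and -0.01 with equal medians). BCL2 was at 50.8, 44.6 and 41.8 in day 9 libraries and 32.9, 27.0 and 24.9 in WT libraries (0.68, adjusted p = 0.000705), where KO cells held 305.0 ± 6.5. The other higher member, BCL2L1, lost its call without WT replicate 1 or 2 or day 9 replicate 1 or 2 (adjusted p up to 0.136) and with equal medians, and the lower one, BMF, without day 9 replicate 3 (adjusted p = 0.0564), which left 0, while BIK was called as well without day 9 replicate 2 (adjusted p = 0.0381). Of 15 histone genes, 1 was higher and 2 lower (median -0.26), with H2AC6 at -0.71, and H3C10 lost its call without any of 4 single libraries (adjusted p up to 0.232) and with no filter (0.0562), which leaves 1 lower. Of 12 germline genes, 1 (SYCE2, -0.68) was lower, and 2 were without WT replicate 1 or day 9 replicate 1. Of 5 MAGE and cancer-testis genes, 2 were lower, MAGED1 and SPIN3, both on the edge described above and left out, which leaves 0, without genes at 0 in all libraries of a group.

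**Figure D5:**
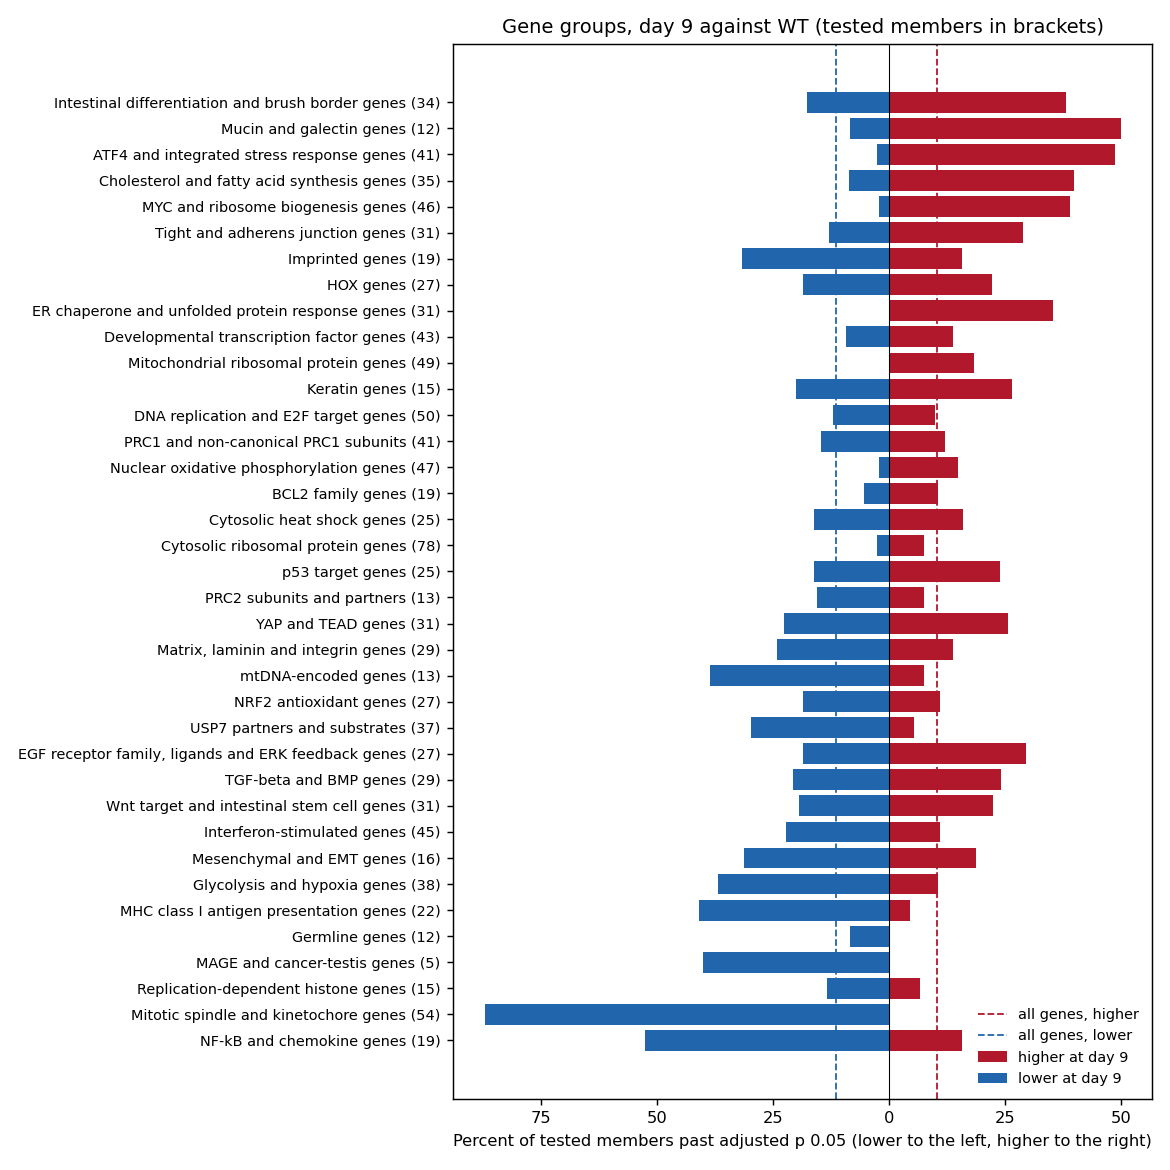
Percent of tested members of each of 37 gene groups that were higher (red, to the right) or lower (blue, to the left) in day 9 than in WT cells, ordered by the median log2 difference, with the number tested in brackets; dashed lines mark the shares over all 15134 genes, 10.4% higher and 11.4% lower. The mitotic group has 47 of 54 members lower and none higher, and the ATF4 group 20 of 41 higher and 1 lower.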

How the data were processed

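The 15 DLD1 RNA-seq libraries come from a single table for the series, and sample titles gave the groups. The submitters' processing notes name HISAT2 2.1.0, HTSeq, DESeq2 and the build hg19. Other versions, the strand setting and the annotation are not given there. By their column names, the deposited values are the authors' normalized counts per gene and library, a signal in which all values of a library are whole multiples of 1 step (0.9899 to 1.0073). The authors' deposited group means, log2 fold changes and p-values were not used. Per the labels' protocols, libraries were made with a kit that selects mRNA and marks strand. Of 22706 genes, 1 with a cell holding text was left out and 22627 had a symbol, paired by Ensembl ID from reference tables.

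Genes reaching 10 in 3 or more libraries were kept (15134). limma 3.58.1 (R 4.3.3, statmod 1.5.0) was fitted to log2(value + 1) of all 15 libraries with a mean for each group, and its eBayes step used the trend and robust options. Adjusted p is two-sided Benjamini-Hochberg, threshold 0.05. A count test had been planned for raw counts. The table holds normalized values, so the test for such values was used. The median standard error was 0.087 log2 units. On data simulated for day 9 against WT (15497 genes), 28 of 50 genes with a 1.25-fold change were found, 46 of 50 with 1.5-fold, 50 of 50 with 2-fold and 50 of 50 with 4-fold. Among 15297 genes simulated without change, 6 were called. The simulated counts had a common dispersion and no difference between project codes, so these rates may not hold for the deposited values.

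Members and gene lists were chosen with earlier results of these data known. Named are USP7, the 12 largest differences in each direction among called genes that average 50 or more over the 6 libraries without overlap, genes at 0 in 1 group, the 6 largest in each direction with a KO difference under 0.2, the 6 largest KO differences in each direction whose day 9 interval lies within 0.5, up to 4 members per list by adjusted p, and all called Polycomb subunits. A second set of decreases without genes at 0 was added after the data were seen. Replicate libraries correlated at Pearson r 0.9943 to 0.9978 across genes, which are not independent. They differed on average by 1.37 to 5.41 times counting noise (median over genes 1.09 to 2.57), so none was an identical copy. These ratios cannot tell technical from biological replicates. Tables and plots were made with Python 3.11.15 (numpy 2.4.6, pandas 2.3.3, matplotlib 3.10.9). Some genes named by these rules are not reported here.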

Additional observations from a re-analysis of the deposited data

How the results depend on the processing

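Called genes numbered 3303 and lay between 3038 and 3908 over other scalings, pseudocounts, filters and fits, and between 2409 and 2963 with 1 library left out. With equal medians 1188 were higher and 1889 lower, and the median of all genes moved by 0.028 log2 units. Differences of at least 1 log2 unit numbered 450, with 395 to 433 when 1 library was left out, 631 with no filter, 211 when at least 50 was asked in 3 libraries, and 344 without genes at 0 in all libraries of a group, an alternative added after seeing the data. In that added alternative 3197 genes were called. The 8 genes at 0 in day 9 cells became 25 with a WT minimum of 10 and 2 with a minimum of 100. USP7 differed by 0.46 to 0.55 and was called in all settings run. Of 207 named genes, 0 changed direction in a called difference, and 6 lost their call with equal medians and 10 to 15 with 1 library left out.

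Replicate numbers were not used to pair the samples in the main fit, and whether they do is not settled. The deviations of same-numbered day 9 and WT libraries correlated at 0.364, 0.134 and 0.092, and those of different-numbered ones at -0.273 to 0.175. Day 9 replicates 2 and 3 correlated best with another number. With the number as a replicate block 3718 genes were called, 458 by at least 1 log2 unit, and 1 more named gene was called. Among the gene groups, 9 DNA replication genes in place of 5 and 5 antioxidant genes in place of 3 were then higher, and 7 heat shock genes in place of 4 lower. The count tests planned for recovered whole reads, edgeR and DESeq2, were not run, because the deposited values could not be shown to be whole reads. The depth of the raw libraries is not known, and group sizes of 3 limit calls of small differences.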

Other observations

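Among the 16 genes whose day 3 and day 9 libraries all lay outside the range of the other 9, the matricellular genes CCN1 and CCN2, widely used YAP targets, were above. CCN1 averaged 831.7 in day 9 cells, with 516.4, 559.0 and 926.6 in KO, day 1 and day 3 cells, and 623.3 in WT cells. CCN2 averaged 183.6 in day 9 cells, with 124.8, 151.0 and 181.3 in KO, day 1 and day 3 cells, and 125.3 in WT cells. The cholesterol synthesis gene HMGCS1 averaged 6104 in day 9 cells, 6056 in day 3 cells and 5314 in WT cells. The elongation factor gene EEF1A1 was below, at 41887 in day 9 cells, 40886 in day 3 cells and 46131 in WT cells, a difference of -0.14. These genes were chosen after their values were seen, and for each of them the project code and the length of doxycycline treatment cannot be told apart.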
